A study of Mus musculus with 29 samples.

Results

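Short H3K27me3 regions that lie inside protein-coding genes, away from any start site, are described here in the E17.5 mouse cortex. They were chosen by peak calls and position alone. The H3K27me3 peaks of 8 libraries were merged where they shared at least 1 bp, and 22220 merged regions had a peak in 2 or more libraries. Of these, 5247 were shorter than 10000 bp, overlapped the body of a protein-coding gene and lay more than 2000 bp from every protein-coding transcription start site (TSS), and these are the gene-body regions. The other regions were 5068 short regions at promoters, 11228 short regions outside genes and 677 wide regions of 10000 bp or more.

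H3K27me3 is the mark that the Polycomb complex PRC2 places on nucleosomes of silent developmental genes, and the demethylases JMJD3 and UTX remove it. The mark is best known from CpG-rich promoters and from broad domains over transcription factor genes. Inside gene bodies it can cover silent intragenic CpG islands, alternative promoters and the flanks of broad domains. BAF (mSWI/SNF) complexes remodel chromatin and oppose Polycomb at many loci, and their core subunits BAF155 and BAF170 are encoded by Smarcc1 and Smarcc2.

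The 8 libraries carry the letters C (4 libraries) and K (4 libraries) in their titles, and the study lists K as the dcKO_hGFAP-Cre mutant and C as its control. The deposited genotype label reads BAF dcKO_hGFAP-Cre for both letters, the strain is C57BL/6J and the tissue is the embryonic cortex. In the mutant both Smarcc1 and Smarcc2 are deleted by Cre under the human GFAP promoter, which acts in late cortical progenitors. The deletion need not cover every cell of the tissue. The methods describe the controls as heterozygous littermates with Cre. Each letter had a single pooled input, so that the input and the letter cannot be told apart. RNA-seq counts of 4 untreated C and 3 untreated M libraries (M is listed by the study as dcKO, and the label is again dcKO for both) and of 4 wild type vehicle and 4 dcKO vehicle libraries were used for the host genes. The labels do not say which samples came from separate embryos, and p-values cover the spread between these samples only.

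Sequences are shown first, because CpG-dense DNA and purine repeats both occurred among the gene-body regions. The first set is taken from the 10 regions that had a peak in all 8 libraries and the highest lowest fold enrichment. These are 150-base windows with most CpG in the 4 of these regions with the highest ratio of observed to expected CpG, with CpG in capitals, on the plus strand of GRCm38.p6 (RefSeq), the same coordinates as mm10. The windows lie at chr14:122227311-122227460 in Clybl, chr19:47253318-47253467 in Neurl1a, chr10:42636077-42636226 in Ostm1 and chr19:6830282-6830431 in Rps6ka4, and they hold 12, 32, 19 and 17 CpG.
Clybl: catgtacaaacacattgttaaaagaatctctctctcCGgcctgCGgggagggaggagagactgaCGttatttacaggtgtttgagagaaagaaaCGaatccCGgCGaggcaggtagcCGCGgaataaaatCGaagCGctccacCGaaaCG
Neurl1a: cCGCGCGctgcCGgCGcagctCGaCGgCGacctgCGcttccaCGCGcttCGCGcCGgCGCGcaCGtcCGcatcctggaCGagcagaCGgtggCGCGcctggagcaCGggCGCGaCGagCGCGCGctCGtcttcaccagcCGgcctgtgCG
Ostm1: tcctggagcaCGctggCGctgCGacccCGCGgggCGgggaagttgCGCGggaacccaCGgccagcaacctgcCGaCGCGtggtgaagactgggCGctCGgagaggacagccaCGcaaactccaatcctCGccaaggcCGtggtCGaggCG
Rps6ka4: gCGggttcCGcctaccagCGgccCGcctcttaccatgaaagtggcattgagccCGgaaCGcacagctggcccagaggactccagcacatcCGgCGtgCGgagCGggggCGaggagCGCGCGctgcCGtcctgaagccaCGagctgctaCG

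The same windows follow for the 4 of the 10 regions with the lowest ratio, at chr6:23273179-23273328 in Cadps2, chr2:130361900-130362049 in Ebf4, chr7:131624350-131624499 in Fgfr2 and chr5:135089901-135090050 in Mlxipl, which hold 7, 21, 11 and 21 CpG. The windows were picked for their CpG, so their counts are a description. The ratio over the whole region was between 0.224 (Mlxipl) and 0.392 (Ebf4), against 0.402 to 0.579 in the first set.
Cadps2: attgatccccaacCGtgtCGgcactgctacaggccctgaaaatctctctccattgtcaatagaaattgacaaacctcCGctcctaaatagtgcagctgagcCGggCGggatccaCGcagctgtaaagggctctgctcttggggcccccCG
Ebf4: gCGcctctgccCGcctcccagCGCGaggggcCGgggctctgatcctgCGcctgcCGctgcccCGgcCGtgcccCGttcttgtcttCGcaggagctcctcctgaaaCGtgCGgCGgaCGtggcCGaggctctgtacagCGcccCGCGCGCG
Fgfr2: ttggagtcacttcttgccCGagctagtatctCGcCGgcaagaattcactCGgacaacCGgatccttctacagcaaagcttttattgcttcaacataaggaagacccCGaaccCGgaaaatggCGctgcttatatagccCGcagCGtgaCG
Mlxipl: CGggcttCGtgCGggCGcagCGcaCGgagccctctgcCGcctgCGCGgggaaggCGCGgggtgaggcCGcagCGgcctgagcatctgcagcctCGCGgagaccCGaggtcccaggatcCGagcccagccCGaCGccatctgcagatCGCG

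The last set shows repeat DNA. These 2 regions, picked after their values were seen, had a peak in each of the 4 libraries that kept few tags and in none of the others, and were among those with the highest mean enrichment of such regions with a purine tandem run of at least 50 bases. A purine tandem run is an exact repeat of a unit of 1 to 6 bases made only of A and G on one strand, and capitals mark the longest run in the window. The windows lie at chr6:125749028-125749177 in Ano2 and chr2:121795574-121795723 in Frmd5, with runs of 52 and 130 bases. They hold 0 CpG.
Ano2: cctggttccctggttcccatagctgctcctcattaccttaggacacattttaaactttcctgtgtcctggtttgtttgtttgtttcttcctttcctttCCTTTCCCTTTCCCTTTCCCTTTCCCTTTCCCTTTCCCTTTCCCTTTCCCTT
Frmd5: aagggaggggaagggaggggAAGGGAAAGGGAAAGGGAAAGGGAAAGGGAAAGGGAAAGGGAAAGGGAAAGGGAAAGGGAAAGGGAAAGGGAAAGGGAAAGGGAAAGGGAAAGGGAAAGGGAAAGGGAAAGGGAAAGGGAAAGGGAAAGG

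Most gene-body regions were short and seen in few libraries. Their median length was 1050 bp, with quartiles at 550 and 2026 bp and a range from 208 to 9822 bp, and together they covered 8.37 Mb. A peak was found in exactly 2 libraries for 2696 regions (51.4%), in 3 for 1288, in 4 for 568, in 5 for 361, in 6 for 173, in 7 for 104 and in all 8 for 57. Below the limit, 15578 regions met every other condition with a peak in 1 library only, and their median length was 392 bp, against 755.5 bp at 2 libraries. At the length limit the longest gene-body regions were in Elmo1 (9822 bp), Ebf2 (9818 bp) and Asb18 (9711 bp), and the shortest regions just beyond it were in Gm26992 (10018 bp), Pax2 (10037 bp) and Iqsec2 (10040 bp). At the distance limit the nearest ones inside were at Cyp4f14 (2007 bp), Olfr1416 (2011 bp) and Bbx (2013 bp), and Epb41l1 (1997 bp), Dnaaf1 (1989 bp) and Xlr5a (1984 bp) fell just outside.

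Libraries differed widely in how many gene-body regions they showed. C libraries 1 to 4 had a peak in 3110, 1834, 1384 and 1214 of them, and K libraries 1 to 4 in 2722, 1207, 820 and 3264. The high and low counts were spread over both letters, and the ranges of C and K overlapped. The libraries also differed in the percent of tags left once duplicates were removed, and they are separated here at 30%. C libraries 1 and 3 and K libraries 1 and 2 kept 12.3 to 18%, which left 2.42 to 3.97 tags in units of 1e6, and C libraries 2 and 4 and K libraries 3 and 4 kept 32.8 to 66.5%, or 8.9 to 28.3 in the same unit. K4, at 32.8%, was close to the limit. Of the most frequent combinations, C1 with K1 (608 regions), C2 with K4 (508) and C1 with C3 (315) each stayed within a class, while C1, K1 and K4 together (451) and C1 with K4 (289) crossed it.

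**Figure D1:**
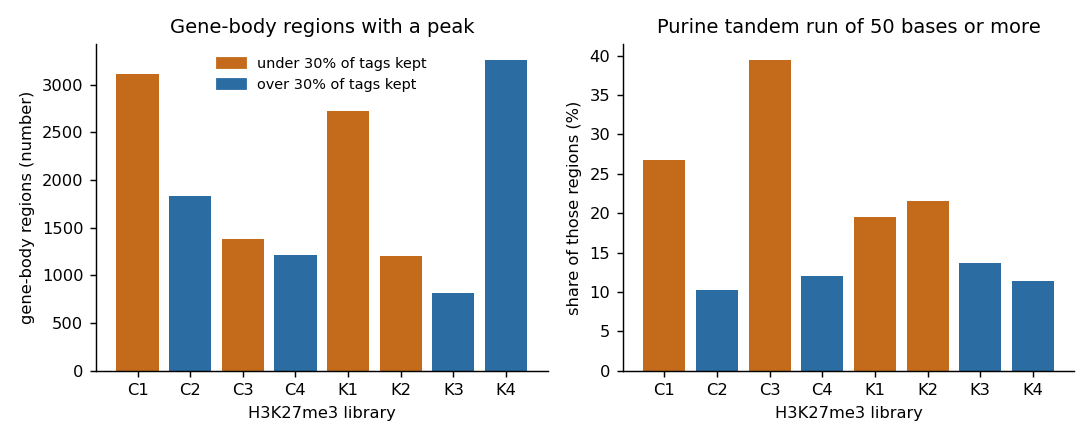
Left, the number of the 5247 gene-body regions with a peak in each H3K27me3 library (bars), which ran from 820 in K3 to 3264 in K4. Right, the percent of those regions with a purine tandem run of at least 50 bases, which was 19.5 to 39.5% in the 4 libraries that kept under 30% of tags (orange) and 10.3 to 13.7% in the other 4 (blue).

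The class of library went with the kind of sequence. Of all gene-body regions, 1708 (32.6%) had peaks only in libraries that kept under 30% of tags, 1307 (24.9%) only in the others and 2232 (42.5%) in both. Regions of the first kind were short, with a median of 502.5 bp, and a median of 87.4% of their bases was soft-masked, that is, marked as interspersed or simple repeats in the reference. Those seen only in the other class had a median length of 1653 bp with 12.6% soft-masked, and those seen in both had 1334 bp and 28.9%. A purine tandem run of at least 50 bases was present in 552 of the 1708 (32.3%), in 33 of the 1307 (2.52%) and in 370 of the 2232 (16.6%). In the first kind the commonest units were AAG (158 regions), AAAG (80) and AAGGAG (58), counted together with their rotations and complements. Regions seen in both classes had AG (109) and the mixed unit AGAGGC (73) most often. Among regions with exactly 2 libraries the same contrast was present, with a purine run in 29.4% of those in the low class, 1.58% of those in the high class and 12.6% of those with 1 library of each. How the class of a library enters the peak calls was not tested.

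**Figure D2:**
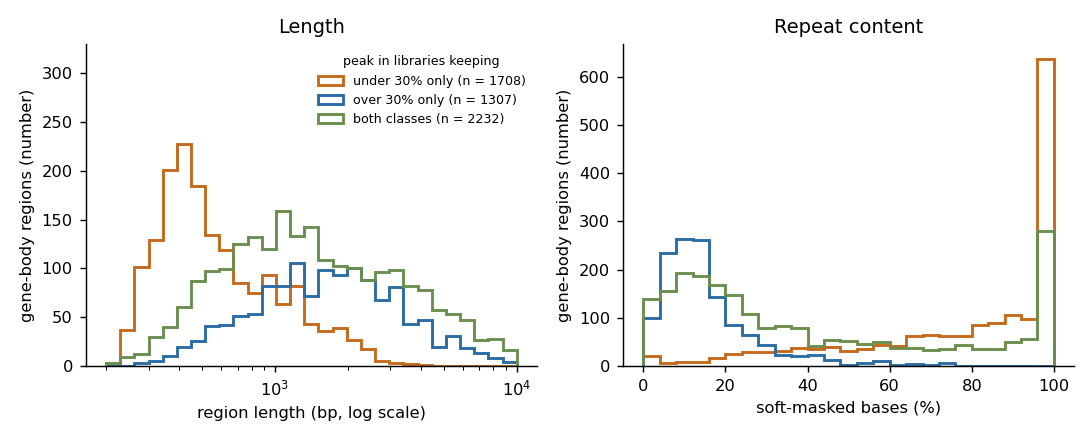
Length on a log scale (left, bp) and percent of soft-masked bases (right) of gene-body regions with peaks only in libraries keeping under 30% of tags (orange, n = 1708), only in libraries keeping over 30% (blue, n = 1307) or in both (green, n = 2232). The lines are histograms of region numbers, and the orange regions gather at short lengths and at high repeat content.

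In CpG content and class of library, the gene-body regions resembled regions outside genes more than those at promoters. Their median ratio of observed to expected CpG was 0.248, against 0.240 outside genes, 0.450 at promoters and 0.336 in wide regions. A window of 200 bases with at least 50% GC and a CpG ratio of at least 0.6 was present in 44.3% of gene-body regions, 44.1% of regions outside genes, 85.3% of promoter regions and 93.2% of wide regions. Median lengths were 1050, 986, 2518 and 15940 bp, in this order. Longer regions have more room for such a window, and the shares were not adjusted for length. In soft-masked bases the gene-body regions, at a median of 35.2%, lay between promoter regions (11.8%) and regions outside genes (57.5%). Regions seen only in libraries keeping under 30% of tags made up 32.6%, 38.9% and 5.43% of gene-body, outside and promoter regions, and 0 of the 677 wide regions. These are descriptions of regions that peak calls defined, with no test.

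Regions shared by more libraries were longer and more often CpG-rich. A merged region spans all its overlapping peaks, so more libraries can lengthen it by construction. A longer region also has more room for a CpG-rich window, a purine run or an exon, and the shares below were not adjusted for length. From 2 to 8 libraries, the median length was 755.5, 1130, 1914, 1670, 3589, 4340 and 4873 bp. The share with a CpG-rich window was 35.7% at 2 libraries and 87.7% at 8, and the median soft-masked share was 42.2% and 20.6%. Purine tandem runs of at least 50 bases were also more frequent, in 17.2% at 2 libraries, 24.9% at 6 to 8 and 29.8% at 8, so that such runs were not limited to regions of the libraries keeping few tags. The 334 regions with a peak in 6 to 8 libraries touched an exon in 59.0% of cases, compared with 18.5% of those with 2 libraries, and 35.6% of them lay in the last 20% of the host gene, compared with 20.1%. Their host genes were also shorter, at a median of 69710 bp against 143400 bp.

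**Figure D3:**
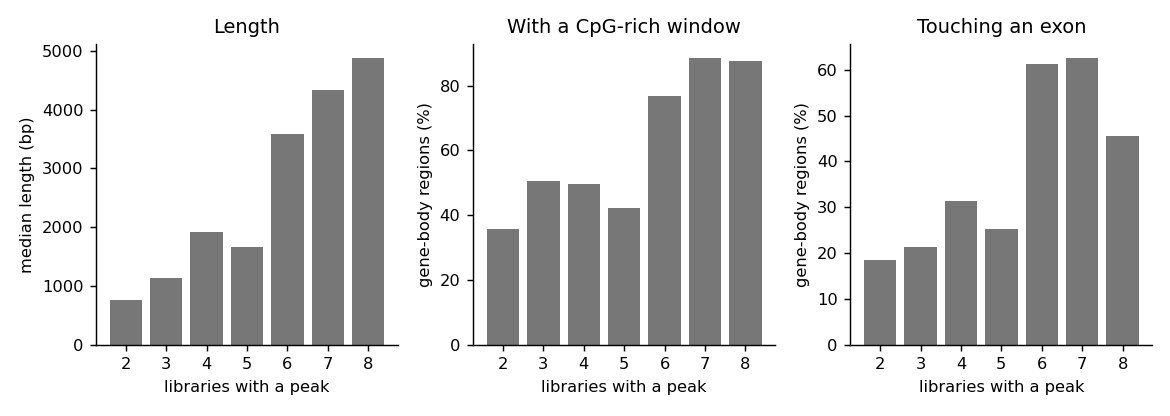
Median length in bp (left), percent with a CpG-rich window (middle) and percent touching an exon (right) of gene-body regions by the number of libraries with a peak (bars, 2 to 8 libraries). Length was 755.5 bp at 2 and 4873 bp at 8 libraries with a dip at 5, the CpG-rich share was 35.7% and 87.7% with a dip at 4 and 5, and the exon share was highest at 6 and 7.

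Over all 5247, 4006 (76.3%) were wholly intronic, 1241 (23.7%) touched an exon and 349 (6.65%) were over 50% exonic. The whole region lay within the host gene in 5058 cases (96.4%). A start site of a noncoding gene or pseudogene was within 2000 bp of 303 (5.77%), so that these lay near annotated starts that the rule did not count. Starts of noncoding transcripts of protein-coding genes were counted neither by the rule nor here. A wide H3K27me3 region was within 50 kb of 706 (13.5%). This share was 3.57% for regions seen only in libraries keeping under 30% of tags, 25.2% for those seen only in the others and 25.7% for those with 6 to 8 libraries. A region at the promoter of the host gene was present for 3180 (60.6%), and 1409 of the 2805 genes that hold a gene-body region (50.2%) had one, compared with 24.5% of all 22028 protein-coding genes.

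The 10 regions with peaks in all 8 libraries and the highest lowest fold enrichment were found in genes of varied function. Of these, 3 (in Cadps2, Fgfr2 and Ostm1) lay within 50 kb of a wide region. The 10 were picked by their lowest fold enrichment over input, so their values are a description. They were not the highest by mean, since the Arhgap21 region had a mean log2 fold enrichment of 3.157, against 2.945 in Neurl1a. Those in Neurl1a and Rps6ka4 overlap the annotated start of a noncoding gene or pseudogene. Those in Clybl, Fosb and Fgfr2 lay 494, 1017 and 1021 bp from such a start, and the rest were farther than 2000 bp. The region of Neurl1a, which encodes an E3 ubiquitin ligase of the Neuralized family, spans chr19:47251048-47255389 near the gene's 3' end. It had fold enrichments of 18.8, 4.78, 8.37 and 4.64 in C libraries 1 to 4 and 15.2, 6.81, 4.55 and 7.54 in K libraries 1 to 4. The highest values were in libraries C1 and K1, and the letters overlapped. In Clybl, a mitochondrial lyase gene, an intronic region at chr14:122224239-122233160 had values of 4.86, 4.40, 9.35 and 4.44 in C and 11.6, 8.86, 4.32 and 5.80 in K. The nearest wide region, 226282 bp away, covers Zic2 and Zic5, zinc finger factors of the dorsal neural tube.

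Cadps2 encodes a protein of dense-core vesicle release. Its intronic region at chr6:23271178-23275812 had 8.11, 4.79, 6.04 and 4.27 in C and 8.69, 6.39, 4.31 and 5.07 in K, and a wide region over the forebrain factor gene Fezf1 began 8193 bp away. The region in Ostm1, a gene needed for osteoclast and lysosome function, lay 35624 bp from a wide region. That wide region lies at start sites of both Nr2e1, the nuclear receptor of neural stem cells, and Ostm1 itself. The gene-body region in Ostm1 had 4.87, 3.99, 5.60 and 3.95 in C and 13.1, 11.8, 4.19 and 5.85 in K. These were the highest K values of the 10 after Neurl1a, and they came from K1 and K2, while K3 and K4 lay near the C libraries.

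Of the 10, 5 lay in the last 20% of the host gene, in Cadps2, Neurl1a, Ebf4, Kcnk3 and Rps6ka4. In Kcnk3, a leak potassium channel gene, the region was 70.6% exonic and had 5.46, 4.64, 6.77 and 4.15 in C and 6.77, 4.26, 4.50 and 8.07 in K. In Rps6ka4, a kinase gene of the MAP kinase pathway, it was 43.55% exonic, with 4.35, 5.39, 4.64 and 4.39 in C and 4.66, 6.52, 4.85 and 8.82 in K. In Fosb, an AP-1 factor gene of which the region covers most, it lay 2042 bp from the nearest TSS, just past the limit. Its values were 5.76, 4.68, 5.10 and 4.18 in C and 7.86, 8.0, 6.42 and 7.36 in K, so that all 4 K values were above all 4 C values (log2 fold change 0.59, standard error 0.64, unadjusted p = 0.357 and adjusted p = 1.0 in limma). The other 3 were in Mlxipl, a glucose-responsive factor gene (4.16 to 9.41 over the 8 libraries, with only 47.7% of the region in the gene), in Ebf4, an early B cell factor gene (4.07 to 9.06), and in the annotated span of Fgfr2, an FGF receptor gene (4.02 to 6.78).

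**Figure D4:**
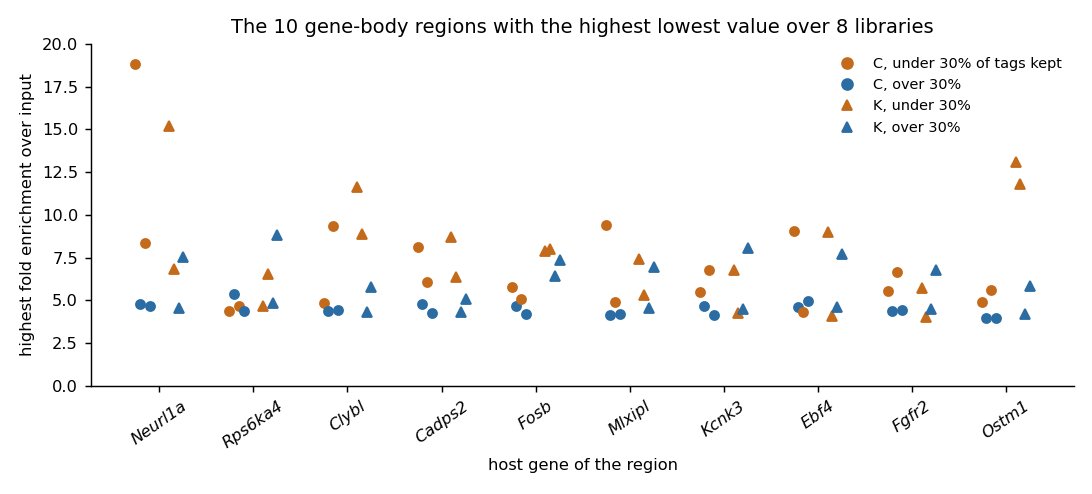
Highest fold enrichment over input (linear axis) of the 10 regions in each of the 4 C (circles) and 4 K libraries (triangles), orange for libraries keeping under 30% of tags and blue for the others. The highest values, 18.8 and 15.2 in Neurl1a, belong to orange points, and C and K points are interleaved in most genes.

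Gene-body regions were unevenly spread over genes. Of the 2805 genes with one, 1829 held exactly 1 and 161 held 5 or more. The genes with most were Gm20388 (57), Fgfr2 (50), Camta1 (43), Wwox (41) and Zfhx3 (41). The annotated spans of Gm20388 (4430 kb) and Fgfr2 (2960 kb) are transcript models that run over 73 and 30 other protein-coding genes, so their counts describe a stretch of chromosome rather than a gene. Camta1, a calmodulin-binding transcription activator gene, held 45.5 regions per Mb, Wwox, an oxidoreductase gene, 44.9 and Zfhx3, a zinc finger homeobox gene, 40.2, against 4.88 per Mb of gene body over all protein-coding genes.

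Density was looked at after the counts were known, and the genes named in this paragraph were chosen with their values seen. Ebf2, which encodes an early B cell factor of early-born neurons, was the densest among the 41 genes with 10 or more regions. Its 27 regions made up 137 per Mb and covered 43.7% of a 198 kb gene, beside 2 wide regions in the same gene. Of these 27, 12 had peaks only in libraries keeping over 30% of tags, 14 in both classes and 1 only in the others. The longest Ebf2 region, chr14:67355192-67365009, had 3.94, 3.94 and 4.02 in C libraries 1, 2 and 4 and no peak in C3, and 4.74, 5.76, 3.55 and 4.59 in K libraries 1 to 4. The paralogue Ebf1 had 34 regions over 21.8% of its 391 kb body, beside 4 wide regions, with 26 seen only in libraries keeping over 30% of tags and 1 only in the others. In both genes, then, most of the neighbouring short regions had a peak in a library keeping over 30% of tags. Tox2 and Them7, with 116 or more per Mb, were among the next in density.

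Gene families differed in how many of their members held a region, and both shares and densities per gene length are given, since long genes have more room. Glutamate and GABA receptor genes (25 of 48, 52.1%, median gene length 130 kb), cadherins and protocadherins (51 of 101, 50.5%), collagens and basement membrane genes (27 of 62, 43.5%) and axon guidance genes (31 of 72, 43.1%) lay above the 12.7% of all protein-coding genes. Their densities of 5.99, 3.28, 6.84 and 6.12 per Mb were near the 4.88 of all genes. The 51 cadherin genes shared 54 regions, since many clustered protocadherin genes have overlapping spans. Homeodomain factors (25 of 157, 15.9%) and other developmental transcription factors (38 of 182, 20.9%) were short, with medians of 7.36 and 10.4 kb, and had 18.2 and 14.2 regions per Mb. Wnt pathway genes had 10.6 per Mb (17 of 73 genes), and genes of Notch, Hedgehog, BMP and FGF signalling 10.3 (18 of 84). In the latter list the long annotated span of Fgfr2 held 50 of 87 regions. Voltage-gated channels had 6.40 per Mb (48 of 132 genes) and Zfp zinc finger genes 4.71 (40 of 394). The lowest density was that of BAF, Polycomb and demethylase genes, at 1.96 (7 of 64 genes).

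The regions found in most libraries within each family follow. Among channels these included Kcnk3 and Cacng8, an AMPA receptor auxiliary subunit gene (fold enrichment 3.83 to 10.6 over 8 libraries). Among receptors they were Grin2d (7 libraries), Grin2c (6) and Grik4 (6), subunit genes of NMDA and kainate receptors. Axon guidance genes were led by Epha10 (3.90 to 11.1 over 8 libraries), Sema6c (7) and the netrin gene Ntn1 (7), and cadherins by Pcdh15 (3.77 to 7.51 over 8 libraries), Cdh23 (7) and Cdh22 (7).

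Collagen genes were an exception. The Col6a6 region had the highest single value among the regions named by list, 22.2 in C1, with 2.90 and 11.2 in C2 and C3, 20.8, 11.6 and 6.85 in K1, K2 and K4, and no peak in C4 and K3. It was 67.0% soft-masked, and that of Col28a1 (5 libraries) 94.2%, with a purine run of 89 bases, while the Col13a1 region (7 libraries) was 20.3% soft-masked.

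Among homeodomain factors the region in Pax5, a factor of the midbrain-hindbrain boundary and of B cells, had 9.31, 4.17, 12.6 and 3.85 in C and 9.11, 8.20, 4.30 and 6.38 in K. Prox1, a factor of dentate granule neurons, had a region with 3.09 to 5.37 over 8 libraries, and Nkx6-3 had one in 7 libraries. The Wnt pathway was led by Wnt8a (3.68 to 5.51 over 8 libraries), the R-spondin receptor gene Lgr4 (3.47 to 6.38 over 8 libraries) and Wnt3 (7 libraries). In Jarid2, a cofactor gene of PRC2 itself, an 839 bp region with a CpG ratio of 0.917 had a peak in 7 libraries, with values of 6.82, 2.53 and 4.65 in C libraries 1 to 3, no peak in C4, and 11.9, 3.74, 3.28 and 7.92 in K. It was the only region with 6 or more libraries among genes of the BAF and Polycomb list, in which Smarca1, an ISWI remodeller gene, had a region in 3 libraries. Zfp316 and Zfp652 had regions in all 8 libraries, and Zfp467 in 7.

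The comparison of K with C asks whether loss of BAF155 and BAF170 moved the mark at these regions. For it the log2 of the highest fold enrichment, with a fold enrichment of 1 where no peak was called, was fitted over all 22220 regions. At an unadjusted p under 0.01, 1 of the 5247 gene-body regions was higher and 0 were lower in K, beside 0.00900% of all regions called, and at an unadjusted p under 0.05 there were 11, beside 0.221% of all regions. The latter count was 72 with the replicate number as a block, 87 with a term for tags kept and 61 without K replicate 3. Over all regions these settings gave 233 and 289 of 22220 and 202 of 21995, in this order. No gene-body region had an adjusted p under 0.05 in limma (0.00% of all regions). The share of all regions at an unadjusted p under 0.01 was far below that limit itself. The few calls therefore do not show that the mark was unchanged. The mean over gene-body regions was 0.748 on the log2 scale in C and 0.803 in K, and 2937 of them (55.97%) had a higher mean in K, compared with 59.8% of all regions. The direction was not stable. Without C library 2, 3 or 4 the share higher in K was 43.2%, 40.2% and 38.8%, and it was 44.1% when values were centred on the median of each library. Within the libraries keeping under 30% of tags, 33.2% were higher and 41.9% lower in K (mean K minus C of -0.123 on the log2 scale), and within the others 51.0% were higher and 16.4% lower (0.233), with regions without a peak in the class counted as equal.

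The 1 region called was the intronic region of Arhgap21, a GTPase-activating protein gene, at chr2:20899653-20900404. Its fold enrichments were 10.7, 3.89, 4.78 and 3.30 in C and 29.2, 7.46, 10.1 and 27.6 in K (log2 fold change 1.63, standard error 0.52, unadjusted p = 0.00163, adjusted p = 1.0 in limma). The lowest K value was below the highest C value, so the letters overlapped. Without C1 the adjusted p was 0.0148 in limma (log2 fold change 1.99, standard error 0.405), the only gene-body region past 0.05 when any 1 library was left out. It no longer had an unadjusted p under 0.01 without C4, without K4, with the replicate number as a block or with a term for tags kept, where the log2 fold change was 1.42, 1.36, 1.63 and 1.63. The region was 752 bp long, with 0.399% of its bases soft-masked and 46.5 CpG per kb. Cdk8, a kinase gene of the Mediator complex, held a region of similar length (753 bp, 53.1 CpG per kb) and pattern, with 10.8, 2.20, 5.03 and 1.76 in C and 26.9, 4.06, 5.02 and 15.8 in K (unadjusted p = 0.0364 in limma). In both regions library 1 was the highest of its letter in C and in K.

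Regions with peaks in every library of one letter and in none of the other were few. There were 2 with 4 K and 0 C libraries (0.0270% of all regions) and 1 with 4 C and 0 K libraries (0.0180% of all regions), while 57 had all 8. Mast1, a neuronal microtubule-associated kinase gene, held a region with 3.81, 3.48, 4.11 and 6.28 in the K libraries, and the integrin gene Itgad one with 3.25, 3.76, 3.34 and 4.55. Rbms3, an RNA-binding protein gene, held the region with 3.46, 3.43, 5.11 and 3.28 in the C libraries. The unadjusted p-values in limma were 0.0189, 0.0337 and 0.0318, in this order, and the adjusted p was 1.0 for each. These regions were picked for this pattern, and every library of the other letter was set to 1. Their p-values are therefore a description and no test of a difference. The other regions with the smallest p were those of Ccdc63 (higher in K, 3 K libraries) and of Nfic, Cald1, Sdk1 and Slc17a9 (lower in K), with unadjusted p between 0.039 and 0.0723 in limma.

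The RNA level of the host genes was measured in the untreated C libraries, as RPKM (reads per kilobase of exon and per 1e6 reads). The median was 1.08 over the 2723 host genes listed in the count tables and 1.98 over the 18450 protein-coding genes without a gene-body region. Levels above 1 were found for 50.8% and 55.3%, and levels under 0.1 for 26.6% and 33.0%. Host genes thus included both expressed and silent genes, and fewer of them were near 0. Long genes showed a larger gap in the median. Above 50 kb, the median was 2.22 for host genes and 5.95 for genes without a gene-body region, and 16.4% and 10.8% were under 0.1. Arhgap21 (39.6), Mast1 (23.6), Camta1 (20.7), Sema6c (26.4) and Prox1 (7.30) were well expressed, while Fosb (0.0272), Itgad (0.0337), Lrmda (0.00387) and Them7 (0.0143) were near 0, and Wnt8a, Pax5 and Gm20388 were listed at 0 in all 4 C libraries.

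Before the changes of host gene RNA, the deleted genes were looked at in each library. The library labelled M replicate 2 and the library labelled dcKO vehicle replicate 2 went against their labels. Smarcc1 was at 244 CPM (counts per 1e6 reads) in M replicate 2, against 129 and 135 in M replicates 3 and 4 and 247 to 271 in C, and at 243 CPM in dcKO vehicle replicate 2, against 133 to 139 in the other 3 and 245 to 292 in WT. Results are given with and without these libraries.

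In M against C, 0 of 2007 host genes tested had an adjusted p under 0.05 in edgeR (0.00634% of all genes). An unadjusted p under 0.05 was found for 451. At that limit all genes were not counted, so this number cannot be set against them. DESeq2 called 121 of 2568 host genes at the adjusted limit, against 248 higher and 283 lower of all 26057 genes. At an unadjusted p under 0.01 in edgeR, 50 host genes (2.49%) were higher and 125 (6.23%) lower in M, against 2.66% and 2.80% of all genes tested. The median log2 fold change was -0.06 over host genes and 0.004 over all genes. In the vehicle experiment 0 of 2044 host genes had an adjusted p under 0.05 in dcKO against WT in edgeR (0.00611% of all genes). An unadjusted p under 0.05 was found for 324, again without a count over all genes to set it against. DESeq2 called 19 of 2644 host genes at the adjusted limit, against 84 higher and 34 lower of all 31309 genes. At an unadjusted p under 0.01 in edgeR, 38 host genes (1.86%) were higher and 58 (2.84%) lower, against 1.56% and 1.29% of all genes. In bulk tissue, fewer cells of a type and less RNA per cell cannot be told apart.

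Without M replicate 2, 407 host genes passed an adjusted p of 0.05 in edgeR, 173 of them higher (8.46%) and the rest lower (11.4%) in M, against 5.57% and 6.88% of all genes. Without dcKO vehicle replicate 2, 114 host genes passed in edgeR, 44 of them higher and 70 lower in dcKO, against 1.34% and 2.06% of all genes. More host genes were lower than higher in each comparison, with and without these libraries. At an unadjusted p under 0.01 this turned in the vehicle comparison without WT vehicle replicate 4, where 20 were higher and 16 lower. The untreated and vehicle experiments cannot be counted as independent, since same-numbered libraries had close levels of some genes. Dct was at 4.37, 6.72, 8.19 and 5.36 CPM in C and 3.44, 7.48, 8.24 and 5.18 in WT vehicle libraries. In replicates 2 to 4 it was at 6.18, 0.343 and 1.01 in M and 6.8, 0.174 and 0.842 in dcKO vehicle. Whether they share embryos was not tested.

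Marks at the promoter and gene length moved with these shares. Among host genes, 7.32% were lower in M at an unadjusted p under 0.01 where the promoter also had a region and 4.85% where it had none. Among protein-coding genes without a gene-body region the shares were 5.32% and 1.59%. Above 50 kb, 7.38% of host genes and 4.63% of other genes were lower. Host genes whose regions were all seen only in libraries keeping under 30% of tags had 5.61%, and those whose best region had 6 to 8 libraries 6.80%. Markers of other cells were also measured. The summed level of 4 choroid plexus markers was 5.86 to 125 CPM in C and 4.92 to 9.48 in M, and 5.17 to 122 in WT and 5.77 to 9.02 in dcKO vehicle libraries, with 2 of the 4 above 1 CPM in every library of each group. Ttr, the most abundant of them, was at 3.57 to 119 CPM in C and 3.17 to 6.21 in M, and none of the 4 was at 0 in any library. The summed level of 4 mesenchymal markers was 8.31 to 39.6 in C and 8.93 to 14.8 in M, so that both sets overlapped between the groups. That of 3 endothelial markers, all above 1 CPM in every library, was 100 to 116 in C and 83.6 to 98.9 in M, without overlap, and 90.1 to 125 in WT and 93.0 to 103 in dcKO vehicle libraries, with overlap. All 11 cortical markers were above 1 CPM in every library. The part of these cells in the host gene shares was not tested.

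**Figure D5:**
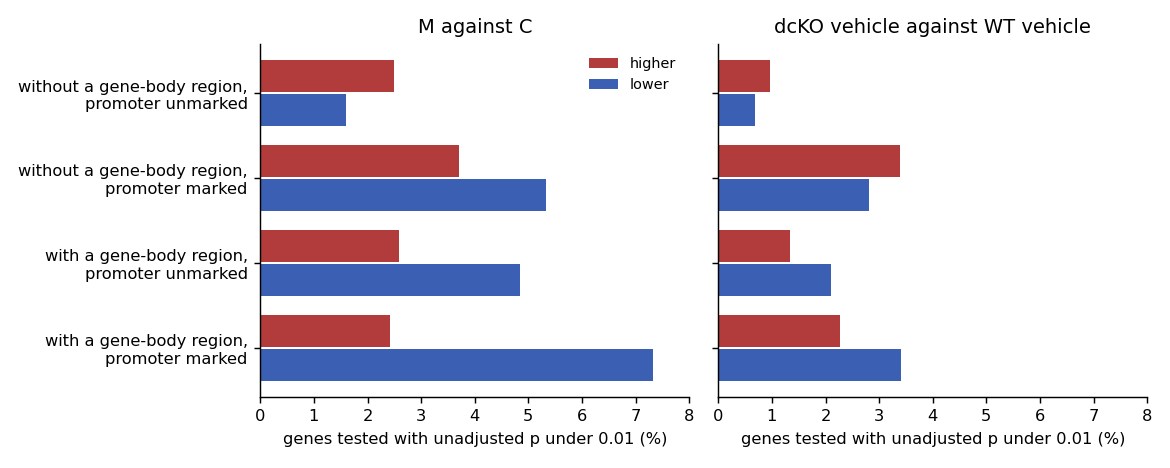
Percent of tested genes with an unadjusted p under 0.01 in edgeR, higher (red) or lower (blue), for M against C (left) and dcKO vehicle against WT vehicle (right), in 4 sets of protein-coding genes by whether they hold a gene-body region and whether their promoter has a region (marked). In M against C the blue bar runs from 1.59% without either to 7.32% with both, and the red bars lie between 2.41 and 3.71%.

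No host gene met the rule for naming by RNA change in either comparison. The genes below were therefore picked after their values were seen, from the comparison of M with C without M replicate 2 (edgeR, adjusted p in brackets). The largest rises were those of Cd247, a T cell receptor chain gene (log2 fold change 3.75, adjusted p = 9.7e-06), Hmcn1, a hemicentin gene of the extracellular matrix (3.29, 7.68e-08), the orphan nuclear receptor gene Esrrb (2.25, 0.000125), Bnc2 (2.04, 0.0488) and Thsd4 (1.92, 4.95e-06). In Hmcn1 the C libraries had 3.78, 4.29, 4.43 and 4.59 CPM and the M libraries 10.7, 44.2 and 39.7 for replicates 2 to 4, so that the library labelled M replicate 2 lay between. The largest decreases were those of the pigment cell genes Dct (-3.20, 0.00104) and Oca2 (-1.92, 0.0183), the desmosomal gene Dsc3 (-3.03, 0.000772), Otogl (-2.86, 0.00164) and Olfml1 (-2.0, 0.0349). Dct was at 4.37, 6.72, 8.19 and 5.36 CPM in C and 6.18, 0.343 and 1.01 in M. Most of these 10 genes held 1 gene-body region with 2 or 3 libraries, and Cd247 held 4, the best in 6 libraries.

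Some genes with many or strong regions also differed in that comparison, and a link between the regions and the RNA was not tested. The regions counted for Fgfr2 lie in an annotated span that runs over other genes, so they describe a stretch of chromosome. Fgfr2 was at 48.1, 49.7, 55.9 and 47.6 CPM in C and 59.3, 82.7 and 82.9 in M (log2 fold change 0.71, standard error 0.07, adjusted p = 0.000182 in edgeR without M replicate 2, and 0.58 with adjusted p = 0.107 with it). Zfhx3 (0.96, adjusted p = 0.00743), the estrogen-related receptor gene Esrrg (0.83, 0.00104), Clybl (0.78, 0.015), Ebf2 (0.73, 0.016), Wnt3 (0.74, 0.0327), Zfp467 (0.60, 0.00103), Wwox (0.37, 0.0294), Jarid2 (0.31, 0.0128), Rbms3 (0.34, 0.023) and Zfp316 (0.24, 0.035) were higher without M replicate 2, and Nfic (-0.44, 0.0102) and Kcnk3 (-0.43, 0.0393) were lower. With all libraries none of these passed an adjusted p of 0.05 in edgeR, and Zfhx3, Esrrg and Ebf2 had log2 fold changes of 0.51, 0.53 and 0.30. M replicate 2 was below every C library for Zfhx3 (3.67 CPM), Esrrg, Ebf2, Clybl, Zfp467, Wwox and Rbms3, against the rise. It was within the C range for Wnt3, Jarid2 and Zfp316. Neurl1a, Cadps2, Ebf4, Ostm1, Arhgap21, Cdk8 and Camta1 did not pass an adjusted p of 0.05 with or without that library.

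By family, host genes past an adjusted p of 0.05 in edgeR without M replicate 2 are given beside the genes of the same list without a gene-body region, and beside the 5.57% higher and 6.88% lower of all genes. Wnt pathway hosts gave 5 higher and 2 lower of 14 tested, against 10 and 4 of 47 without a region. Axon guidance hosts gave 7 and 6 of 31, against 4 and 6 of 38. Homeodomain hosts gave 3 and 2 of 14, against 13 and 5 of 42, and the signalling list 4 and 1 of 14, against 8 and 6 of 50.

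Other developmental factors with a region gave 3 higher and 6 lower of 32, against 16 and 15 of 99, and collagens 3 and 4 of 27, against 1 and 7 of 33. Cadherins gave 3 and 2 of 21, against 5 and 1 of 39, but of the 51 cadherin genes with a region only 23 are listed in the untreated count table used here. Zfp genes gave 4 and 3 of 36, against 10 and 16 of 319, and channels 4 and 3 of 45, against 7 and 11 of 67. Receptors gave 0 and 2 of 23, against 2 and 3 of 19, and the BAF and Polycomb list 1 and 0 of 7, against 6 and 4 of 57. The called share, both directions together, was above that of all genes with and without a region in each list but the receptors, where the hosts were below it, and the Zfp genes, where those without a region were. The difference between genes with and without a region was not tested. With all libraries and an unadjusted p under 0.01 these lists gave between 0 and 2 higher and between 0 and 4 lower host genes each.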

How the data were processed

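H3K27me3 ChIP-seq and RNA-seq of the E17.5 cortex were used. Per the study's methods, the reads were aligned to mm10 and broad peaks came from MACS2, run on each library against the pooled input of its letter (q-value limit 0.1). From this run the authors deposited, for every peak, a fold enrichment over input, which is a ratio, a pileup (the signal, in tags) and a -log10 q-value. For RNA, STAR alignments were counted over Ensembl genes by featureCounts, and the authors deposited raw counts. The version of the annotation behind the counts is not given in the sources used here.

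Peaks were merged at 1 bp, and regions were placed on GENCODE M21 (GRCm38, the coordinates of mm10). Of 2805 host genes, 2723 are listed in the untreated and 2791 in the treated count tables, whose totals were 11946658 to 28391046 and 12514443 to 26600594 reads per library. Rows that name no gene held 0 counts and were left out. The log2 fold enrichment, 1 where no peak was called, was fitted with limma 3.58.1 (trend and robust), and counts with edgeR 4.0.16 (TMM, filterByExpr, quasi-likelihood, robust) in R 4.3.3. Benjamini-Hochberg adjustment ran over all regions or genes, and both steps were tested on simulated data. The change simulated for limma was larger than that of any region named here, and its noise was independent between libraries. That simulation therefore does not show that changes of the size seen here would be found. The 12 treated libraries were fitted together. Levels are CPM divided by the length of merged exons in kb. DESeq2 1.42.0, other size factors, no count filter, other peak limits, the percent of tags kept, the replicate number as a block and leaving out each library were the alternatives. Signal that did not reach the peak limit is absent from these lists, and depth limits which regions are seen.

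The regions and gene lists were chosen with earlier results of these data known. Named were the 10 regions with peaks in all 8 libraries and the highest lowest value, the 5 regions per direction with the smallest limma p, the 5 genes with most regions, up to 3 regions per list by number of libraries, and up to 5 host genes per RNA comparison and direction that passed an adjusted p of 0.05, averaged 10 or more counts and had groups that did not overlap. Same-numbered C and K libraries had correlations of their deviations from the group means of 0.579, -0.244, -0.323 and 0.309, so the numbers were not taken to pair samples. The Wnt inhibitor group served only for the estimate of spread. Some items that these rules name are not reported here.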

Additional observations from a re-analysis of the deposited data

Results flagged for a closer look

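In groups of 4 libraries, 8 of 70 tested groups of values had 1 library far from the other 3 (Dixon's test at 95%, which chance alone passes in about 1 of 20 groups). For fold enrichment these were the Clybl region (9.35 in C3), the Mlxipl region (9.41 in C1), the Ebf4 region (9.06 in C1) and the Rbms3 region (5.11 in C3), and each of these libraries kept under 30% of its tags. For RNA in the dcKO vehicle group they were Smarcc1 (243 CPM), Smarcc2 (695 CPM) and Fgfr2 (56.4 CPM), each in replicate 2, and Kcnk3 (7.41 CPM) in replicate 3. The causes were not tested.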

How the results depend on the processing

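The number of gene-body regions was 2850 with a q-value under 0.01, 2551 with a peak in at least 3 libraries, 2509 with an overlap of 500 bp and, chosen after the data were seen, 3039 under 50% soft-masked. With each library left out it was 3953 to 5202. Regions at an unadjusted p under 0.01 numbered 3 with the pileup, 3 with the replicate block, 3 with a term for tags kept (under or over 30%) and 0 with an overlap of 500 bp, and 0 to 5 with each library left out. Over all regions there were 13 higher and 3 lower with the pileup and 4 higher with the overlap of 500 bp. The block and the term for tags kept each gave 7 higher and 4 lower. Past an adjusted p of 0.05 there were 0 regions with all libraries and 1 (Arhgap21) without C1. The share higher in K was 44.1% with centred values and 38.8 to 71.1% with each library left out (43.2%, 40.2% and 38.8% without C replicates 2, 3 and 4).

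Host genes past an adjusted p of 0.05 in M against C numbered 32 with no count filter, 121 with DESeq2 and 0 to 407 with each library left out. Over all genes there were 88 higher and 66 lower with no count filter and 248 and 283 with DESeq2. Host genes at an unadjusted p under 0.01 were 18 higher and 47 lower with the replicate block, and 18 to 190 higher and 38 to 271 lower with each library left out. The block gave 131 higher and 145 lower over all 15770 genes. In the vehicle comparison DESeq2 gave 19 past the adjusted limit, with 58 higher and 93 lower at the unadjusted one, the replicate block gave 102 lower, and leaving out libraries gave 0 to 114, 15 to 100 higher and 16 to 153 lower (20 higher and 16 lower without WT vehicle replicate 4). Over all genes DESeq2 gave 84 higher and 34 lower at the adjusted limit and 358 and 333 at the unadjusted one. The block gave 370 lower over all genes. Among single regions and genes named, no alternative turned a direction in the 142 values computed, but many of these could not turn. Where a region had no peak in any library of the other letter, its direction was fixed by construction. The replicate block and the term for tags kept left each region's log2 fold change as it was. For genes, only the replicate block and leaving out M replicate 2 were computed. Centred values and the pileup were not among these values. The count is therefore no test of stability. The labels do not say that a number marks a shared animal, and same-numbered libraries did not deviate together throughout. The causes of these shifts were not tested. The peak lists bound precision by depth, which was 2.42 in units of 1e6 tags in the smallest library.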
